A study of Drosophila melanogaster with 48 samples.

Results

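The sex determination genes of Drosophila melanogaster were followed in RNA of dissected adult brains. They were 8 genes, taken by their FlyBase symbols (Sxl, tra, tra2, dsx, fru, ix, her and dsf) and matched to the gene IDs of the count tables, out of 17869 annotated genes and 23932 features in all. All 8 were found and all 8 passed the filter on low counts in every fit. The brains came from males, virgin females, females mated with wildtype males (wildtype-mated) and females mated with SP0 males (SP0-mated). SP0 males carry a sex peptide null allele over a deficiency, so their ejaculate lacks sex peptide, the seminal protein that switches mated females to egg laying and refusal of further mates. The flies whose brains were taken are labelled WT. By the study's methods, flies were the progeny of w1118 females and nSyb-GAL4 males unless noted otherwise, which would give all 16 groups a neuronal GAL4 driver in common. Flies received a single session of very mild headfirst impacts on day 3 after eclosion (D3Inj), or sat in the injury vial without impacts (sham). Brains were taken on day 4 or day 45, that is 1 day or 6 weeks after the session. Each of the 16 groups had 3 libraries from independent cohorts, each pooled from 40 flies, which gives 48 libraries. The mating state of the males is not given by the labels.

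Total counts per library ran from 21495740 to 60637359, with a median of 35543946. In 47 of the 48 tables the column header and the deposit record name different samples, and the header was followed. Headers without sham carry the word "young" in its place, taken here as D3Inj. The male-specific RNA roX1, which coats the dosage-compensated X chromosome, lay between 5520 and 6323 CPM (counts scaled to the library size) in the male libraries and at or under 56.7 CPM in the female libraries. By the header 0 libraries went against their sex, and by the record 20 did. No RNA was at hand that marks injury independently of the label, as roX1 marks sex, so the label of sham or D3Inj could not be checked. All 7 neuronal markers and all 6 glial markers examined had counts in every library (0 libraries at 0 for each gene). Replicates were separate cohorts, so the errors cover the spread between cohorts of pooled flies.

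Sex in Drosophila is decided in every cell by a cascade of RNA splicing. The number of X chromosomes turns on Sxl (Sex-lethal) in females only. The Sxl protein keeps its own mRNA in the productive form, directs the splicing of tra and blocks translation of msl-2, so that dosage compensation stays off. Tra protein, made in females only, acts with Tra2 on the transcripts of the transcription factor genes dsx (doublesex) and fru (fruitless). The outcome is a female and a male form of Dsx, and a male form of Fru made from the distal promoter in neurons that serve courtship. The genes are transcribed in both sexes, and the sexes differ in the exons that are kept. The counts used here sum all exons of a gene, so they cannot show which form its RNA took. Longer forms give more counts per molecule, so amount and form are mixed in a sex difference of counts. In whole brains, fewer cells of a type and less RNA per cell cannot be told apart.

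Per unit of exonic length the 8 genes fell into a high, a middle and a low range. Sxl was the highest at 91.7 ± 20.2 RPKM (CPM per kilobase of exon, SD over all 48 libraries), followed by fru at 21.9 ± 4.10 RPKM. Then came tra at 16.9 ± 2.43, tra2 at 13.0 ± 0.930, ix at 11.1 ± 1.52 and her at 9.46 ± 0.655 RPKM. The lowest were dsx at 1.54 ± 0.751 RPKM and dsf at 0.823 ± 0.172 RPKM. Sxl exceeded fru in 48 of 48 libraries, and her exceeded dsx in 48 of 48. The other neighbours overlapped in their ranges: fru was above tra in 43 libraries, tra above tra2 in 46, tra2 above ix in 41, ix above her in 41 and dsx above dsf in 41. The lengths come from Ensembl release 115, which need not be the release the authors counted with. Each is the merged length of the exons of all transcripts, 18433 bases for fru (15 transcripts) and 727 for ix (1 transcript). Such a length can exceed that of any single transcript, so genes with many transcripts may be understated beside the others. The lowest count of any member in a library was 50, for dsf.

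**Figure D1:**
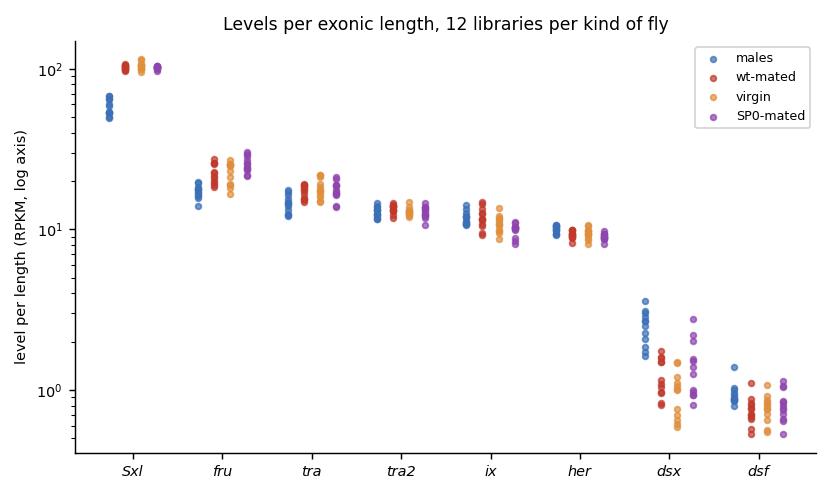
Level per exonic length (RPKM, log axis) of the 8 genes in all 48 libraries, with 12 points per kind of fly and gene, coloured by kind. Sxl (49.3 to 114 RPKM) stands above all others and dsx and dsf lie lowest, with male points at the bottom for Sxl and at the top for dsx.

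The first comparison set the 6 male libraries of a day against the 18 female libraries, with sham and D3Inj averaged, so that these values do not depend on which libraries were injured. On day 4, 3 of the 8 genes were lower in males (Sxl, fru and tra) and dsx was higher. The same 4 genes were called on day 45, in the same directions. Of all features tested, 18.8% were called on day 4 (9.84% higher and 8.96% lower in males) and 16% on day 45 (7.3% higher and 8.74% lower), where called means past the threshold (adjusted p under 0.05, edgeR's quasi-likelihood test with Benjamini-Hochberg adjustment over all features, as for every adjusted p given here). The median log2 difference of the 8 genes was 0.02 on day 4 and 0.05 on day 45, against medians over all features of -0.0022 and 0.0096. Libraries of the sexes did not overlap for 3 of the 8 genes on day 4 (Sxl, fru and dsx), where 4.13% of all features were separated in this way, and for Sxl alone on day 45, where 3.3% were.

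Summed markers of some other cells differed by sex too. The summed level of the 6 glial markers was 3071 to 3353 CPM in males and 2400 to 2776 CPM in females on day 4, and 1975 to 2070 against 1555 to 1768 CPM on day 45. Of these 6 genes 5 were called higher in males on both days, beside 9.84% and 7.3% of all features. The 5 hemocyte markers summed to 231 to 404 CPM in males and 522 to 822 CPM in females on day 4, and to 295 to 359 against 416 to 767 CPM on day 45. The largest of them by median over all libraries was Hml (344 CPM), with PPO2 next at 57.7 CPM. The fat body list, which holds the yolk protein genes, summed to 2174 to 2799 CPM in males and 4491 to 13264 CPM in females on day 4, and to 2463 to 3904 against 7083 to 23405 CPM on day 45. Of its genes, Lsp2 was at 0 in 1 library and to in 12, while Yp1, Yp2 and Yp3 ran from 0.878 to 3037, 1.26 to 6735 and 1.66 to 7133 CPM. The neuronal sums of the sexes overlapped on both days (9488 to 10486 and 9300 to 10053 CPM on day 4). The part of these cells in the sex differences of the 8 genes was not tested.

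**Figure D2:**
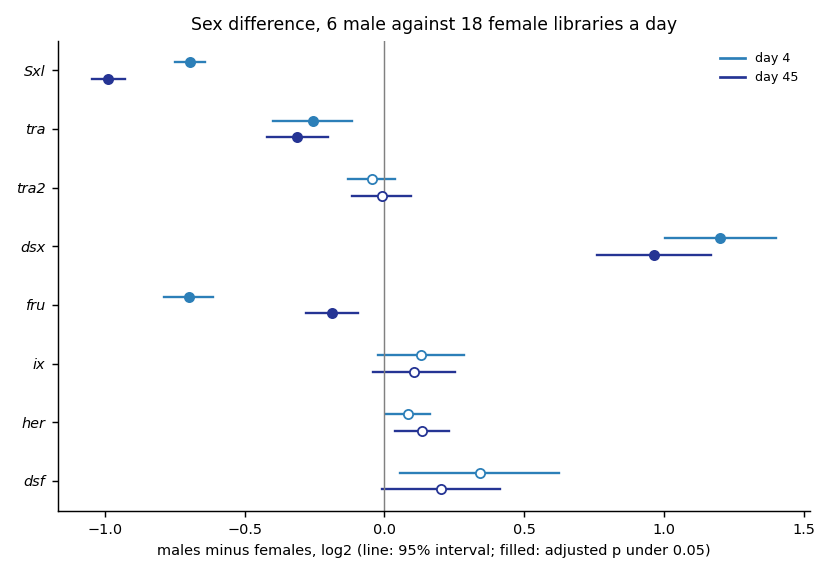
Males minus females on the log2 scale for the 8 genes on day 4 and day 45, with 95% intervals (normal approximation from the standard error) and filled points where the adjusted p was under 0.05. Sxl lies at -0.69 and -0.99, fru moves from -0.70 to -0.19, tra lies at -0.26 and -0.31 and dsx at 1.20 and 0.96, while the intervals of tra2 and ix include 0 on both days.

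Sxl, the switch gene that encodes an RNA-binding protein (FBgn0264270, X chromosome, 7074550 to 7098053 on the minus strand in dm6, 25 annotated transcripts), showed the most regular pattern. On day 4 the 6 male libraries held 542.5, 594 and 620.3 CPM (lowest, median and highest) and the 18 female libraries 894, 945 and 988 CPM. On day 45 males held 453, 487 and 498 CPM, and females 878, 940.3 and 1051 CPM. Every male library lay below every female library on both days. The log2 difference was -0.69 (SE 0.027, adjusted p = 1.2e-14) on day 4 and -0.99 (SE 0.030, adjusted p = 6.2e-18) on day 45. Scaled Sxl counts in female brains were thus 1.62 and 1.98 times those in male brains. Sham libraries alone gave -0.71 and -1.02, and D3Inj libraries alone gave -0.68 and -0.96. Sex carried 93.9% of the variance of Sxl over the 48 libraries, and the spread within groups 1.64%.

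Sxl is the only member on the X chromosome. The median X-linked gene tested was 0.042 lower in males on the log2 scale on day 4 and 0.12 lower on day 45 (-0.042 and -0.12), and 28.0% and 34.8% of X-linked genes were called lower in males and 17.7% and 11.7% higher. On the 4 large autosomal arms the medians ran from 0.011 to 0.033 with 4.67% to 7.32% of genes called lower and 7.20% to 10.7% called higher. The 2 noncoding RNAs of dosage compensation differed between the sexes by 8.09 (roX1) and 8.87 (roX2) on day 4, while msl-2, which Sxl represses at translation, differed by 0.07 on day 4 (not called) and by 0.13 on day 45 (adjusted p = 0.0059).

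With age, Sxl fell in males, and its change was not called in any kind of female. Of the 8 genes 3 were called with age in males, 2 in wildtype-mated females, 3 in virgin females and 3 in SP0-mated females, where 44.2%, 43.1%, 40.8% and 43.1% of all features were called, so calls with age were common throughout. By direction, 22.9%, 22.1%, 21.8% and 22.4% of features rose and 21.3%, 21%, 19% and 20.7% fell in the same order of kinds. The male log2 change from day 4 to day 45 was -0.29 (SE 0.033, adjusted p = 1.2e-09), and all 6 male libraries of day 45 lay below all 6 of day 4. The share of all features whose days did not overlap was not computed, here or for tra, dsx and fru below. In wildtype-mated, virgin and SP0-mated females the changes were -0.04, 0.05 and 0.01 (SE 0.033 each), none called. The intervals of these 3 changes reached no further than -0.10 and 0.12. Without sham virgin replicate 3 of day 45 the virgin change was 0.08 and passed the threshold (adjusted p = 0.036). The test of the difference itself, male change minus the mean female change, gave -0.30 (SE 0.039, adjusted p = 3.2e-06), where 2.23% of all features were called. Sxl thus ended on day 45 at 479 ± 18.9 CPM in males (SD, n = 6) and 948 ± 45.3 CPM in females (SD, n = 18).

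The next gene of the cascade is tra (transformer, FBgn0003741, chromosome arm 3L, 16590059 to 16591050 on the minus strand), a splicing regulator whose functional protein is made in females. On day 4 male libraries held 10.5, 11.1 and 15.3 CPM and female libraries 11.97, 14.2 and 16.2 CPM. On day 45 the values were 12.04, 12.9 and 14.7 CPM in males and 13.5, 16.3 and 18.8 CPM in females. Most male libraries lay below most female libraries and the ranges overlapped on both days. The log2 difference was -0.26 (SE 0.072, adjusted p = 0.014) on day 4 and -0.31 (SE 0.055, adjusted p = 0.00019) on day 45. The call of day 4 was the least firm of the sex calls: it was lost in sham libraries alone (-0.14, adjusted p = 0.52), without sham male replicate 2 (-0.19, adjusted p = 0.074) and without the 4 libraries high in gut genes (-0.23, adjusted p = 0.081).

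With age tra rose in virgin females (0.26, SE 0.078, adjusted p = 0.0068) and in SP0-mated females (0.29, SE 0.078, adjusted p = 0.0026). It read 14.1 ± 1.07 and then 16.996 ± 1.98 CPM in virgin females, and 13.6 ± 1.24 and then 16.6 ± 1.16 CPM in SP0-mated females (SD, n = 6 each). In SP0-mated females the libraries of the 2 days did not overlap. The changes in males (0.15) and wildtype-mated females (0.10) were not called, though that of males passed without sham male replicate 1 of day 4 (0.22, adjusted p = 0.021), and the male and female changes did not differ by the test (-0.06, SE 0.090, adjusted p = 0.87). In virgin females the rise was 0.41 in D3Inj libraries alone and 0.11 in sham libraries alone (adjusted p = 0.53). Whether the rise differed between sham and D3Inj was not tested. In SP0-mated females it held in sham libraries alone (0.36) and not in D3Inj libraries alone (0.22, adjusted p = 0.14). The gene shares 74 exonic bases with l(3)73Ah on the opposite strand, whose RNA changed with age by 0.17 to 0.22 in the 4 kinds, and by -0.02 and -0.05 between the sexes (neither called).

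The partner of Tra is the RNA-binding protein Tra2 (transformer 2, FBgn0003742, arm 2R, 14602004 to 14604337 on the minus strand), which is present in both sexes and also serves the male germ line. Its RNA stayed within 19.6 and 27.5 CPM over all 48 libraries. Males held 23.5 ± 1.71 CPM and females 24.1 ± 1.34 CPM on day 4, and 24.1 ± 2.00 and 24.2 ± 2.04 CPM on day 45 (SD, n = 6 and 18). The sex differences were -0.05 (95% interval -0.13 to 0.04) and -0.01 (-0.12 to 0.09). The age changes lay between -0.0041 and 0.04 in the 4 kinds, and 67.8% of its variance was spread within groups, the highest share of the 8 genes.

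At the end of the cascade stands dsx (FBgn0000504, arm 3R, 7924323 to 7967408 on the minus strand), a transcription factor gene that shapes sexual differentiation of body and brain through its male and female proteins. It was the only member called higher in males. On day 4 males held 14.9, 18.0 and 24.7 CPM and females 5.42, 8.54 and 11.6 CPM, with no overlap. On day 45 males held 23.0, 26.9 and 32.8 CPM and females 9.34, 13.7 and 25.3 CPM. The highest female library of day 45, D3Inj SP0-mated replicate 1, overlapped the male range. The log2 difference was 1.20 (SE 0.10, adjusted p = 6.4e-09) on day 4 and 0.96 (SE 0.10, adjusted p = 1.7e-07) on day 45, that is 2.30-fold and 1.95-fold higher in males. Against wildtype-mated females alone it was 1.07 and 0.98. The level per length stayed low, at 2.04 ± 0.399 RPKM in males and 0.891 ± 0.186 RPKM in females on day 4.

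The RNA of dsx rose with age in all 4 kinds of fly. In males it went from 18.7 ± 3.65 to 27.1 ± 3.42 CPM, in wildtype-mated females from 8.88 ± 1.27 to 13.7 ± 2.22 CPM, in virgin females from 6.61 ± 1.40 to 11.2 ± 1.92 CPM and in SP0-mated females from 9.01 ± 1.39 to 17.5 ± 4.77 CPM (SD, n = 6 each). The log2 changes were 0.54 (SE 0.14, adjusted p = 0.0013), 0.63 (SE 0.14, adjusted p = 0.00044), 0.76 (SE 0.15, adjusted p = 4.3e-05) and 0.95 (SE 0.14, adjusted p = 6.5e-07). In virgin and SP0-mated females the days did not overlap, by a narrow gap in virgin females (highest 9.24 CPM on day 4, lowest 9.34 CPM on day 45). The male change was 0.24 below the mean female change (-0.24, SE 0.16, 95% interval -0.56 to 0.07), which was not called.

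The rise of dsx in SP0-mated females was 0.63 in sham libraries alone and 1.28 in D3Inj libraries alone. In D3Inj libraries alone the male and wildtype-mated changes were 0.49 each and missed the threshold (adjusted p = 0.050 and 0.058). The gene shares 169 exonic bases with lds on the opposite strand, at 4.61 CPM on average. The RNA of lds rose with age by 0.70 to 1.10 in the 4 kinds and differed between the sexes by -0.06 and -0.07 (neither called). The libraries were stranded, and no source used here states whether the counting used strand. The summed muscle markers rose over the same time from 20.8 to 46.6 to 79.3 to 152 CPM in males and from 32.2 to 73.8 to 117 to 187 CPM in females. The largest muscle marker by median over all libraries was bt (63.2 CPM), with Mhc next at 13.3 CPM, so these sums follow bt most. Of the 4 muscle markers tested, 1, 1, 2 and 1 were called higher with age in males, wildtype-mated, virgin and SP0-mated females. The fat body sum had a median of 2493 CPM on day 4 and 3341 CPM on day 45 in males, and of 7121 and 9771 CPM in females, with 1, 0, 4 and 6 of its 8 genes called higher with age in the 4 kinds. Beside both lists, 21.8% to 22.9% of all features were called higher with age. In the SP0-mated libraries of day 45 the fat body sums were 17239, 12122 and 7132 CPM in sham and 23405, 12252 and 8917 CPM in D3Inj (replicates 1, 2 and 3), where dsx read 18.5, 14.3 and 12.8 CPM and 25.3, 20.2 and 13.9 CPM. The library with the highest dsx of all females had the highest fat body sum of all 48. Sums and dsx did not share an order in every group of day 45. Wildtype-mated sums were 9721, 13919 and 14488 CPM in sham and 8245, 9822 and 9309 CPM in D3Inj. Their dsx read 16.1, 13.7 and 14.6 CPM and 9.55, 14.6 and 13.8 CPM. Virgin sums were 10309, 7127 and 8937 CPM in sham and 7083, 10890 and 9117 CPM in D3Inj. Their dsx read 9.75, 10.1 and 13.5 CPM and 11.0, 13.7 and 9.34 CPM. Males had lower sums than all females on that day and a higher median of dsx. The list holds the yolk protein genes, which themselves differ between the sexes, so nothing is read from that contrast. The part of muscle and fat body RNA in the rise of dsx was not tested.

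**Figure D3:**
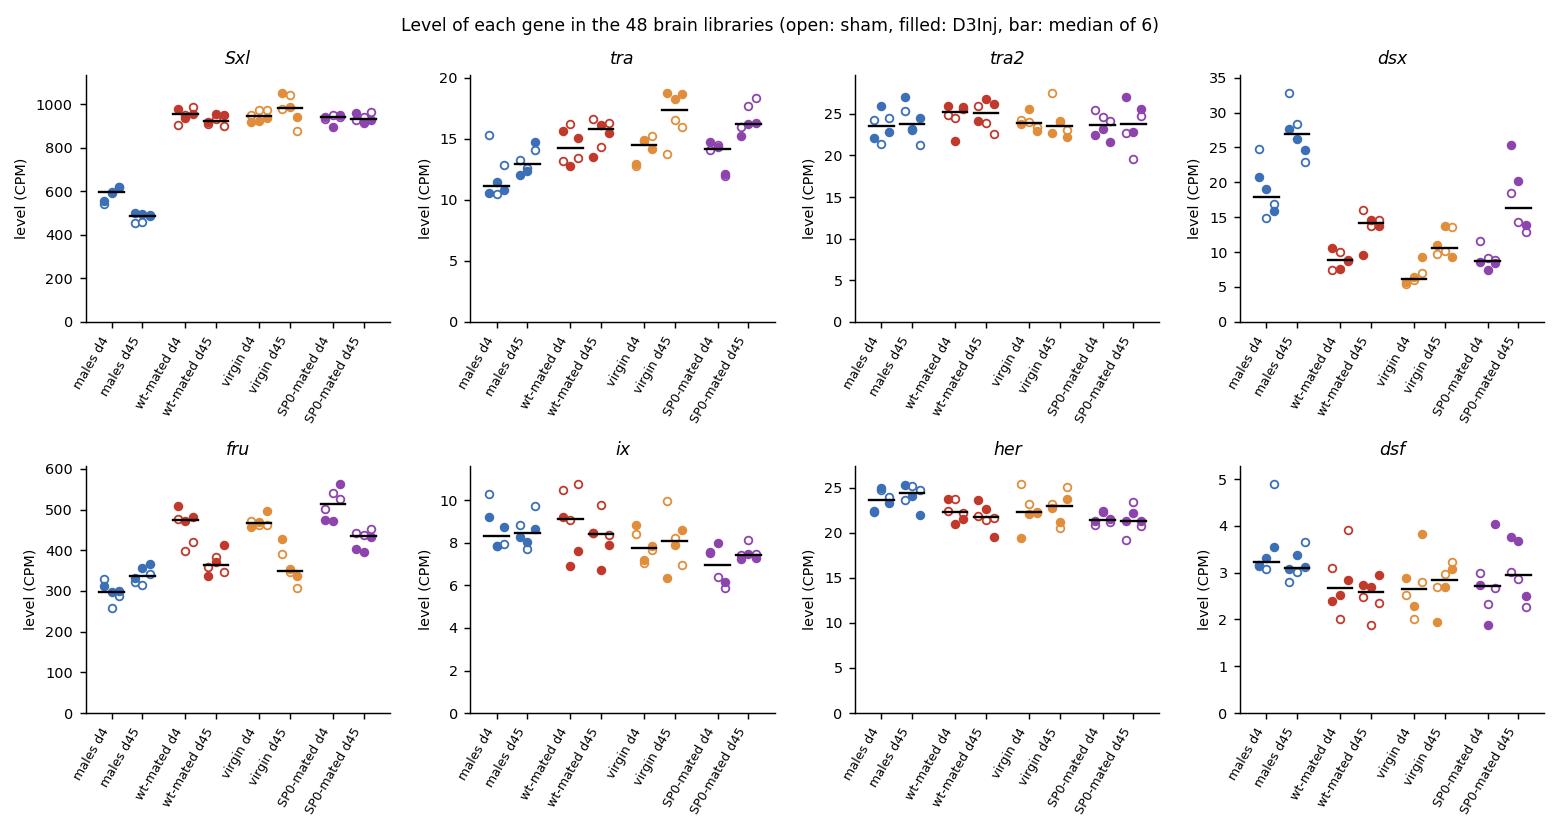
Level (CPM) of the 8 genes in each of the 48 libraries by kind of fly and day, with open points for sham, filled points for D3Inj and a bar at the median of the 6 libraries. Sxl separates the sexes on both days, fru separates them on day 4 and overlaps on day 45, and dsx is higher in males and rises from day 4 to day 45 in every kind.

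The other end gene, fru (FBgn0004652, arm 3R, 18414273 to 18545586 on the minus strand), encodes zinc finger transcription factors of the BTB family, of which the male-specific forms are needed for courtship. It shared the day 4 pattern of Sxl and lost most of it by day 45. On day 4 males held 258, 298 and 329.7 CPM and females 397, 473 and 562 CPM, with no overlap. On day 45 males held 315, 336 and 365 CPM and females 308, 388 and 453 CPM, which overlapped. The log2 difference was -0.70 (SE 0.045, adjusted p = 8.2e-11) on day 4 and -0.19 (SE 0.047, adjusted p = 0.0071) on day 45. The day 45 call was lost in D3Inj libraries alone (-0.13, adjusted p = 0.28) and against wildtype-mated females alone (-0.13, adjusted p = 0.21), and held in sham libraries alone (-0.24, adjusted p = 0.025).

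The narrowing came from both sexes. In males fru rose from 297 ± 23.97 to 339 ± 19.6 CPM (log2 change 0.19, SE 0.059, adjusted p = 0.0084). In females it fell from 459 ± 41.9 to 368 ± 27.3 CPM when wildtype-mated (-0.32, SE 0.058, adjusted p = 2.2e-05), from 470.1 ± 14.3 to 361 ± 42.9 CPM when virgin (-0.38, SE 0.058, adjusted p = 8.7e-07) and from 513 ± 36.9 to 427 ± 22.8 CPM when SP0-mated (-0.27, SE 0.058, adjusted p = 0.00026). The libraries of the 2 days did not overlap in virgin and in SP0-mated females. The male change exceeded the mean female change by 0.51 (SE 0.068, adjusted p = 6.4e-06), with 0.46 in sham libraries alone and 0.56 in D3Inj libraries alone. The male rise by itself was not called in sham libraries alone (0.16, adjusted p = 0.14). Sex carried 48.2% of the variance of fru, day 12.8% and their interaction 16.6%, which was the largest interaction share of the 8 genes. Over the same time the summed neuronal markers fell from between 9300 and 10486 CPM to between 6986 and 7791 CPM over both sexes. Their part in the changes of fru was not tested.

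**Figure D4:**
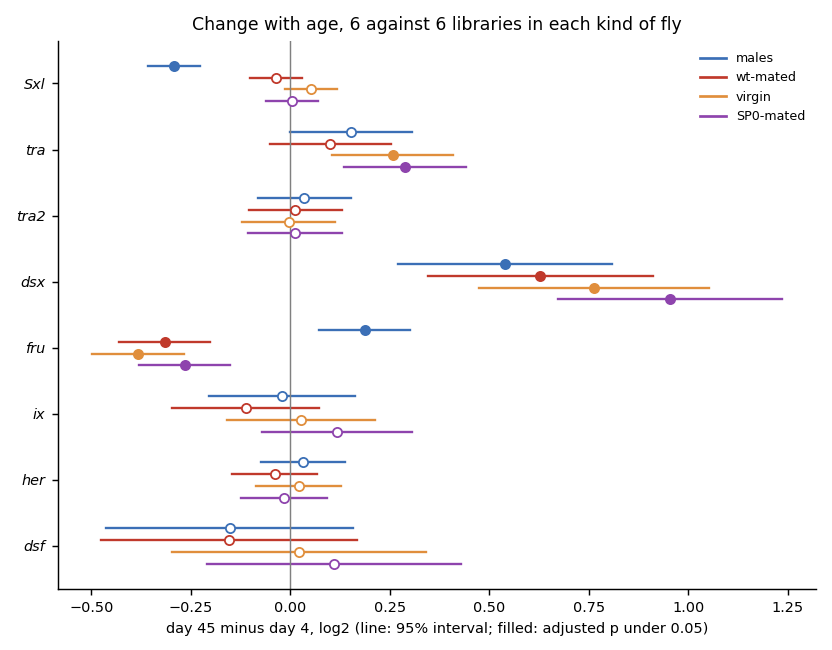
Day 45 minus day 4 on the log2 scale for the 8 genes in each kind of fly, with 95% intervals and filled points where the adjusted p was under 0.05. Sxl fell in males alone (-0.29), dsx rose in all kinds (0.54 to 0.95), and fru rose in males (0.19) and fell in the 3 kinds of female (-0.27 to -0.38).

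The remaining members modify the cascade. The gene ix (intersex, FBgn0001276, arm 2R, 11359437 to 11360163) encodes a Mediator subunit that acts with the female form of Dsx. It held 8.64 ± 0.987 CPM in males and 7.92 ± 1.34 CPM in females on day 4, and 8.54 ± 0.706 and 7.93 ± 0.947 CPM on day 45. The sex differences of 0.13 (95% interval -0.02 to 0.28) and 0.10 (-0.04 to 0.25) were not called, nor was any change with age (-0.11 to 0.12). Differences among the 3 kinds of female carried 21.5% of its variance, the largest such share of the 8 genes, and the spread within groups 48.2%.

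The zinc finger gene her (hermaphrodite, FBgn0001185, arm 2L, 16677185 to 16679691), which is needed early for Sxl to come on and later for sexual differentiation downstream of it, stood slightly higher in males. Males held 22.3, 23.7 and 24.9 CPM and females 19.4, 22.2 and 25.4 CPM on day 4. On day 45 the values were 22.0, 24.4 and 25.2 CPM in males and 19.2, 21.7 and 25.0 CPM in females, again overlapping. The differences of 0.08 (SE 0.041, adjusted p = 0.17) and 0.14 (SE 0.049, adjusted p = 0.066) missed the threshold. The second passed when all 48 libraries were fitted together (0.14, adjusted p = 0.022) and when any of 4 libraries of day 45 was left out (D3Inj male replicate 3, D3Inj wildtype-mated replicate 1, sham virgin replicate 3 or sham SP0-mated replicate 2), at 0.15 to 0.16. No age change was called (-0.04 to 0.03). The annotation places mir-2497 and a pair of INE-1 insertions within its exons, on 28 and 216 shared bases.

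The gene dsf (dissatisfaction, FBgn0015381, arm 2L, 5925937 to 5939261) encodes an orphan nuclear receptor of neurons that acts in courtship and mating of both sexes. It was the lowest member, at 3.52 ± 0.693 CPM in males and 2.77 ± 0.635 CPM in females on day 4 and 3.18 ± 0.297 and 2.77 ± 0.505 CPM on day 45. With 50 to 213 counts per library its intervals were wide. The sex difference was 0.34 (95% interval 0.05 to 0.63, adjusted p = 0.12) on day 4 and 0.20 (-0.01 to 0.41, adjusted p = 0.24) on day 45. The first passed without D3Inj SP0-mated replicate 3 (0.40, adjusted p = 0.045). The age changes ran from -0.16 to 0.11, none called.

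Mating state was compared among the 3 kinds of female, 6 libraries against 6 a comparison. None of the 8 genes was called in any of the 6 comparisons by edgeR's quasi-likelihood test, where 0.123%, 0.103% and 0% of all features were called on day 4 (virgin minus wildtype-mated, SP0-mated minus wildtype-mated, SP0-mated minus virgin) and 0%, 0.0393% and 0.0262% on day 45. Of the 48 gene tests 11 (22.9%) had an unadjusted p under 0.05, as had 8.84% of the tests over all features. DESeq2 called ix (-0.37, adjusted p = 0.029) on day 4 and fru (0.21, adjusted p = 0.046) on day 45 for SP0-mated minus wildtype-mated, and dsx (0.63, adjusted p = 0.0011) and fru (0.25, adjusted p = 0.0052) for SP0-mated minus virgin on day 45. The share of all features that DESeq2 called was not computed, so these 4 calls have no background beside them. The comparisons share libraries, so they are not independent of each other.

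On the log2 scale the mating differences of dsx ran from -0.42 to 0.63, and those of the other genes from -0.36 to 0.26. On day 4 dsx held 5.42, 6.17 and 9.24 CPM in virgin females, 7.41, 8.82 and 10.6 CPM in wildtype-mated females and 7.37, 8.76 and 11.6 CPM in SP0-mated females. On day 45 it held 9.34, 10.6 and 13.7 CPM, 9.55, 14.2 and 16.1 CPM, and 12.8, 16.4 and 25.3 CPM in the same order. Virgin females had the lowest median on both days and all ranges overlapped. The largest difference of the 48 was that of dsx between SP0-mated and virgin females on day 45 (0.63, SE 0.14, adjusted p = 0.076). The summed fat body markers of these libraries were 7132 to 23405 CPM in SP0-mated and 7083 to 10890 CPM in virgin females, with 0 of the 8 genes called, and their part in the difference was not tested. For fru the same comparison gave 0.24 (SE 0.058, adjusted p = 0.10), and SP0-mated females had the highest mean on both days (513 ± 36.9 and 427 ± 22.8 CPM). For ix, SP0-mated minus wildtype-mated females on day 4 gave -0.36 (SE 0.098, adjusted p = 0.13), with 6.92 ± 0.867 against 9.00 ± 1.51 CPM. Leaving out 1 library brought some of these past the threshold: dsx without D3Inj SP0-mated replicate 3 (0.73, adjusted p = 0.022), fru without sham or D3Inj virgin replicate 1 of day 45 (0.29 and 0.30, adjusted p = 0.046 and 0.013) and ix without D3Inj wildtype-mated replicate 2 (-0.41, adjusted p = 0.039). The fru difference of SP0-mated and wildtype-mated females on day 4 (0.17) also passed without sham wildtype-mated replicate 1 (0.21, adjusted p = 0.042). The differences of Sxl ran from -0.06 to 0.08 with intervals inside -0.13 and 0.14, and those of tra2 from -0.07 to -0.0074 with intervals inside -0.20 and 0.12.

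Injury was compared within each kind of fly and day, 3 D3Inj libraries against 3 sham libraries, with the limit given above that this label rests on the headers alone. None of the 8 genes was called in any of the 8 comparisons, either by edgeR's quasi-likelihood test or by DESeq2. Among all features 0.00683%, 0%, 0.0547% and 0.00683% were called on day 4 (males, wildtype-mated, virgin and SP0-mated females) and 0% in each kind on day 45. Of the 64 gene tests 4 (6.25%) had an unadjusted p under 0.05, near the 4.46% over all features, so nothing is read from them. These were fru (0.18) and ix (-0.35) in wildtype-mated females on day 4, her (-0.15) in virgin females on day 4 and tra (0.27) in virgin females on day 45. For the last, the D3Inj libraries held 18.8, 18.3 and 18.7 CPM and the sham libraries 13.7, 16.5 and 15.9 CPM (replicates 1, 2 and 3), and the adjusted p was 1.

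For Sxl the 8 injury differences lay between -0.06 and 0.08, and their intervals inside -0.15 and 0.17. For fru they lay between -0.12 and 0.18 with intervals inside -0.28 and 0.33, and for dsx between -0.27 and 0.38 with intervals from -0.64 to 0.75. The widest intervals were those of dsf, from -0.72 to 0.80. These bounds are the outermost limits of the 8 intervals of a gene, and the smallest change that could be found was not computed. With 3 libraries a group, a gene that was not called may still have changed.

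**Figure D5:**
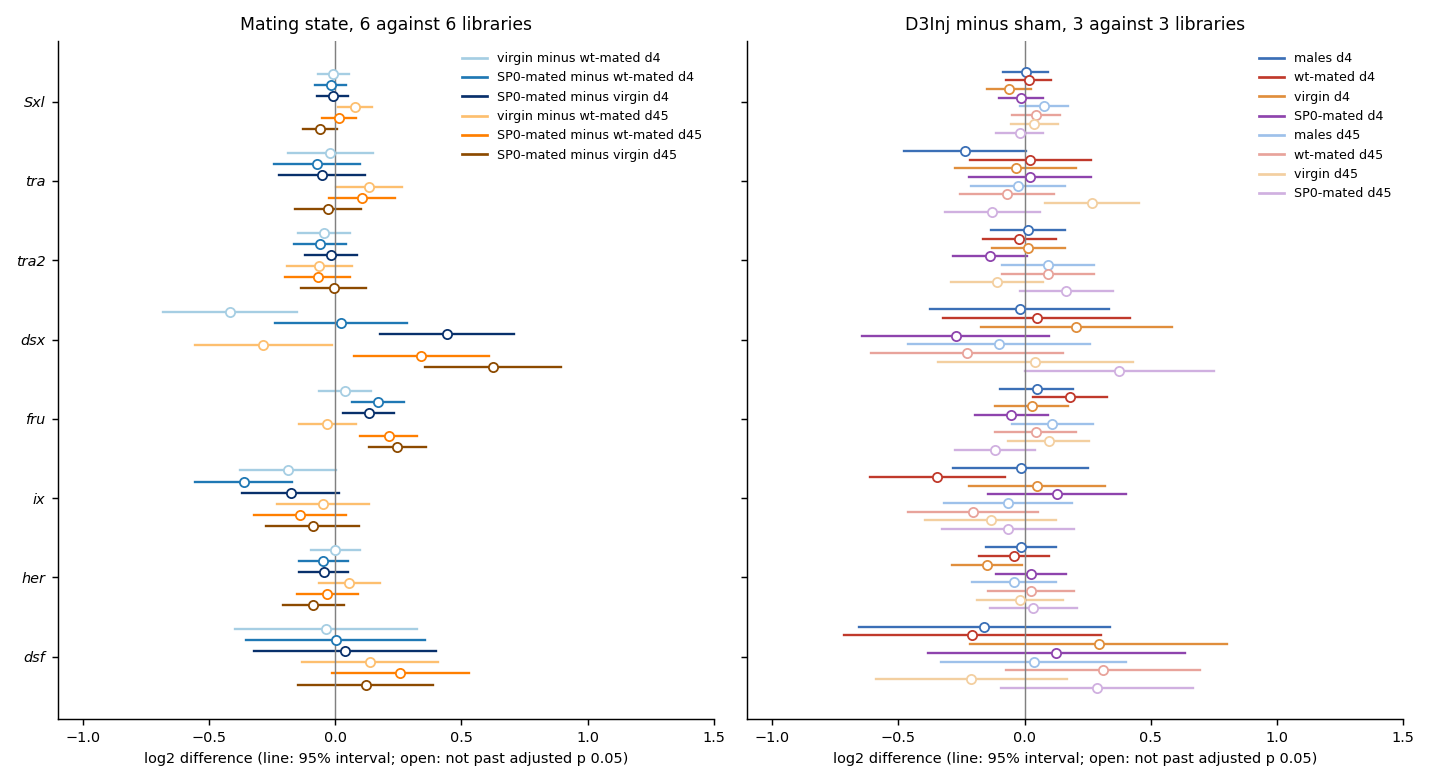
Log2 differences with 95% intervals for the 8 genes in the 6 mating comparisons (left, 6 against 6 libraries) and the 8 comparisons of D3Inj with sham (right, 3 against 3 libraries), all drawn open since none passed an adjusted p of 0.05. The intervals are narrowest for Sxl and widest for dsf, and the points farthest from 0 are dsx in SP0-mated minus virgin females on day 45 (0.63) and on day 4 (0.44).

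Other genes of the pathway were read from lists. Of 10 genes that count X chromosomes or read them to Sxl in the embryo, 7 passed the filter, and 2 were lower in males on each day, beside 8.96% and 8.74% of all features and 28.0% and 34.8% of X-linked genes. The X-linked activator run (runt) was called on both days (-0.29, adjusted p = 0.029, and -0.58, adjusted p = 6.7e-05), at 5.02 to 7.96 CPM in the group means. The other was da (daughterless) on day 4 at -0.07 (adjusted p = 0.040) and hop (hopscotch), the JAK kinase, on day 45 at -0.15 (adjusted p = 0.00082). The embryonic counting genes sisA, sc and upd1 did not pass the filter. The median of the 7 was -0.06 on day 4 and -0.08 on day 45.

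Of 10 genes for Sxl splicing and the m6A writer complex that assists it, nito (spenito) was higher in males on day 4 by 0.12 (adjusted p = 0.0025). On day 45 snf (sans fille), a spliceosomal protein that Sxl splicing needs, was lower by 0.24 (-0.24, adjusted p = 0.00011) and the m6A reader Ythdc1 was higher by 0.11 (adjusted p = 0.011). With age 6, 7, 7 and 8 of its 10 genes rose and 2, 2, 1 and 1 fell in males, wildtype-mated, virgin and SP0-mated females, where 21.8% to 22.9% of all features rose and 19% to 21.3% fell. The list as such was not tested. The methyltransferase Mettl3 rose by 0.41 to 0.63 and nito by 0.35 to 0.58, while Ythdc1 fell by 0.43 to 0.54 (-0.43 to -0.54). For nito the male rise was smaller than the mean female rise (-0.17, adjusted p = 0.025). The medians of the list with age were 0.19, 0.26, 0.23 and 0.30, against -0.0060 to 0.0096 over all features.

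Of 5 genes that Sxl acts on or works with, N (Notch), an X-linked receptor gene that Sxl restrains in female tissue, was lower in males by a like amount on both days (-0.45, adjusted p = 3.1e-11, and -0.46, adjusted p = 5.6e-09). The level was 105 ± 4.41 CPM in males and 143 ± 5.96 CPM in females on day 4. The RNA-binding protein gene how was called on day 45 (-0.14, adjusted p = 0.049). Of 8 genes for SR splicing factors and their kinases, which act with Tra and Tra2, 1 was called higher in males on day 4, the kinase gene SRPK (0.08, adjusted p = 0.0053). With age 6, 6, 6 and 5 of these 8 fell in the 4 kinds and 0 rose, beside 19% to 21.3% of all features that fell. The list medians were -0.20, -0.18, -0.19 and -0.18, and the list was not tested. SF2 fell by 0.33 to 0.38 (-0.33 to -0.38) and B52 by 0.17 to 0.22 (-0.17 to -0.22).

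Among 6 genes under Dsx control 5 passed the filter. The yolk protein genes Yp1, Yp2 and Yp3, which the female form of Dsx activates in fat body, differed by -8.95, -8.44 and -8.21 on day 4 and by -10.00, -10.03 and -9.84 on day 45. Yp1 read 1.47 ± 0.610 CPM in males and 755 ± 333 CPM in females on day 4. The bric-a-brac gene bab2 was lower in males on day 45 alone (-0.16, adjusted p = 0.00036), and its age change differed between the sexes (-0.25, adjusted p = 0.0017), while bab1 was not called on either day (-0.01 and -0.00). Of 6 partners or targets of Fru, HDAC1 was higher in males on day 4 (0.24, adjusted p = 0.0012) and not called on day 45 (0.02), and retn (retained) was lower on day 45 (-0.94, adjusted p = 0.0097) at 2.72 ± 1.06 against 5.39 ± 2.07 CPM. The BTB gene lola was lower by 0.07 and 0.06 (-0.07 and -0.06) on the 2 days. Of 5 genes that mark neurons or cells using Fru or Dsx 4 passed and none differed by sex on either day, and Lgr3, a relaxin-type receptor, rose with age by 0.35 to 0.59 in the 4 kinds.

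Over the 48 libraries, the genes whose log2 levels ran most like Sxl were Cht2 (Pearson r 0.969), Fim (0.967) and Yp3 (0.964). Those most like dsx were Act79B (0.892), Abcd3 (0.885) and CG3902 (0.869). For fru they were CG1812 (0.808), Ant2 (0.794) and B4 (0.779), and for tra Rab40 (0.765), wap (0.751) and Lsd-2 (0.745). For tra2, ix, her and dsf the best r was 0.612 (Rac2), 0.593 (Prosbeta4), 0.604 (Ugt301D1) and 0.626 (scaf). These values describe libraries that share sex, age and dissection, and they carry no test.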

How the data were processed

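RNA-seq counts per gene were deposited by the authors as 1 table per library. By the study's methods and processing notes, ribosomal RNA was depleted, stranded libraries were sequenced, reads were aligned with STAR to dm6 and counted with featureCounts. No source used here gives the tool versions, annotation release or strand setting, so RNA of genes overlapping on opposite strands may be mixed. Columns of counts left unused numbered 0.

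Counts were tested with edgeR 4.0.16 (R 4.3.3; TMM, filterByExpr, 1 coefficient per group, quasi-likelihood test), with the 24 libraries of a day for sex, mating and injury and all 48 for age. Features kept numbered 14631, 15286 and 15640 (day 4, day 45, all). Benjamini-Hochberg adjustment ran over them, and adjusted p under 0.05 was called. The method was tested on simulated data. CPM used a single TMM scaling of the 48 libraries, and RPKM the exonic lengths of Ensembl release 115. Alternatives were DESeq2 1.42.0, DESeq2 size factors, no filter, a replicate block, subsets of libraries and the sample names of the deposit record.

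The 8 genes, and the lists of other genes, were chosen with earlier results of these data known. Named were the 8 genes, called list members, roX1, roX2 and msl-2, and the 3 genes of highest Pearson r with each. Values of list members that were not called (bab1 and others) were added after they were seen. Replicate numbers were not used to pair the libraries in the main fits. No genome was used here, so no sequences are shown. A result for 1 list member is not reported here.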

Additional observations from a re-analysis of the deposited data

Results flagged for a closer look

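In 7 of the 64 sets of 6 libraries (8 genes, 4 kinds of fly, 2 days) 1 library stood apart by Dixon's ratio, the gap to its nearest neighbour over the whole range of log2 CPM, above its 95% critical value. Chance gives about 1 such set in 20. Sxl was low in D3Inj replicate 2 of SP0-mated females on day 4 (ratio 0.672, 894 CPM with 932 CPM next). The level of tra2 was low in D3Inj replicate 2 of wildtype-mated females on day 4 (ratio 0.677, 21.8 CPM with 24.5 CPM next). The level of dsx was low in D3Inj replicate 1 of wildtype-mated females on day 45 (ratio 0.696, 9.55 CPM with 13.7 CPM next). The highest fru value of virgin females on day 4 was D3Inj replicate 3 (ratio 0.629, 497 CPM with 472 CPM next), and the highest ix value of SP0-mated females on day 45 was sham replicate 2 (ratio 0.697, 8.14 CPM with 7.49 CPM next). For dsf, sham replicate 3 of males on day 4 was high (ratio 0.689, 4.89 CPM with 3.55 CPM next) and D3Inj replicate 1 of virgin females on day 45 was low (ratio 0.636, 1.95 CPM with 2.69 CPM next).

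The change with age differed between males and females for 2 of the 8 genes by the interaction contrast of edgeR's quasi-likelihood test: Sxl by -0.30 (adjusted p = 3.2e-06) and fru by 0.51 (adjusted p = 6.4e-06).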

How the results depend on the processing

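Of 168 results for the 8 genes, 21 were called. The share of all features called was computed for the main fits alone, so calls gained under other settings have no background beside them. DESeq2 size factors changed 0 calls. DESeq2 lost 0 and gained 4, which gave 1 called gene for SP0-mated minus wildtype-mated females on day 4, 1 on day 45 and 2 for SP0-mated minus virgin females on day 45, where 0 were called in each. No filter on low counts gave 2 called in the last comparison, and fitting all 48 libraries together gave 1. Sham libraries alone lost 3 of 21 calls and D3Inj libraries alone lost 4, which left 1 gene called with age in wildtype-mated females in place of 2. Leaving out 1 library at a time lost 1 of 420 calls and gained 12, with counts of 0 to 1 for SP0-mated minus wildtype-mated females on day 4 and for SP0-mated minus virgin females on day 45. Leaving out the 4 libraries high in gut genes, chosen after seeing the data, lost 1 of 17 calls. With the samples named by the deposit record 0 genes were called for sex on either day, and on day 4 Sxl (0.20), dsx (-0.49) and tra (0.14) turned direction. By that record 20 libraries went against their sex in roX1.

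Replicate numbers were shared by the groups. The median correlation of deviations between same-numbered libraries was 0.0215 on day 4, with 18 of 84 pairs over 0.1 and the highest at 0.50. On day 45 it was -0.0085, with 1 of 84 pairs over 0.1. The main fits used no pairing, and whether some libraries of day 4 shared handling was not tested. A replicate block lost 0 calls and gained 2: dsf by sex on day 4 (0.35, adjusted p = 0.019) and ix in SP0-mated minus wildtype-mated females on day 4 (-0.36, adjusted p = 0.042), which gave 1 called gene in that comparison.

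Low counts limit dsf most, and the counts of a gene do not show its splice forms. The lengths behind RPKM values are approximate, and the injury label rests on the headers alone.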
